A study of Mus musculus with 10 samples.

Results

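Tetraspanins are small membrane proteins that cross the membrane 4 times and gather partner proteins into patches. In phagocytes some of them sit mainly at the cell surface and others on late endosomes, lysosomes and the vesicles released from them. The 8 genes described here were picked by name for these places, Cd9, Cd63, Cd81, Cd53, Cd37, Cd82, Tspan3 and Tspan4. Earlier results of these data were known when they were picked. Each was found as its own row among the 24453 gene symbols of the deposited table, and 6 of the 8 were high enough to be tested. Cd9 and Cd81 are surface tetraspanins that bind integrins and immunoglobulin-type partners. Cd63 is the classical tetraspanin of late endosomes and lysosomes and a common marker of released vesicles. Cd53 and Cd37 are found mainly in leukocytes, and Cd82 is known as a suppressor of metastasis. Tspan4 is known from cultured rat cells for its place on migrasomes, the vesicles left behind by crawling cells.

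The RNA was that of brain microglia, macrophages that live in the tissue, purified with magnetic beads from untreated C57bl6 mice. In the ageing comparison 3 aged libraries came from mice of 15 months and 3 young libraries from mice of 10 weeks. The Rab7 comparison set 2 libraries with the label deltaMG against 2 with the label control, all from mice of 3 months. Rab7 is the small GTPase that directs traffic to late endosomes and lysosomes. The series calls the deltaMG mice mutants, and neither the Cre line nor the deleted part of the gene is given in the sources used here. Whether each replicate was another animal is not in the labels, and the p-values therefore measure only the spread between these samples, which may be technical. Values are RPM, reads scaled to a common library total, and tests used log2(RPM + 1) in 1 limma model over the 4 groups, with Benjamini-Hochberg adjustment over 4151 genes. A gene was tested if it reached 10 RPM in at least 2 libraries, and it was called at an adjusted p under 0.05. A log2 difference is always given as aged minus young or as deltaMG minus control.

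The targeted gene was not lower in the libraries labelled deltaMG. Rab7 had 72.2 and 79.4 RPM in the libraries labelled deltaMG, against 64.2 and 67.5 RPM in those labelled control, and 60.0 to 103 RPM in the ageing libraries. Both deltaMG libraries were above both control libraries, but the ranges of these groups did not overlap for 51.8% of all tested genes. The log2 difference was 0.20 (SE 0.20, limma adjusted p = 0.668), and its sign turned to -0.21 when a neutrophil marker score was added to the model. A reading over the whole gene may miss a deletion of part of it, so this level checks neither label, and the groups are called by their labels below. If the labels of these 4 libraries were exchanged, the sign of every deltaMG minus control value below would turn, those of Cd9 and Cd63 included, and the data used here do not settle this. The microglial receptor gene Cx3cr1 was higher in deltaMG, with 965 and 1285 RPM in the deltaMG libraries against 398 and 437 RPM in the control libraries (log2 difference 1.41, adjusted p = 0.000158). Microglial markers summed to 3618 to 6078 RPM per library, more than any other marker list except in aged replicate 3, where neutrophil markers reached 4301 RPM against 3618 RPM. The microglial sum was 3618 to 4065 RPM in aged and 5489 to 6078 RPM in young libraries. Of its 11 markers 6 were called lower with age, beside 6.14% of all tested genes called in either direction. An effect of this on the age differences below was not tested. Neutrophil markers summed to 965 to 4301 RPM in aged and 559 to 1425 RPM in young libraries, and to 1186 to 1822 RPM in deltaMG and 460 to 694 RPM in control libraries. Xist, made from an inactive X chromosome, had at most 0.940 RPM in aged libraries and at least 1715 RPM in young ones, so age and sex cannot be told apart. This holds for the 8 genes too, although none of them lies on a sex chromosome. Each Rab7 library held both Xist (924 to 1562 RPM) and RNA of 4 Y-linked genes (9.11 to 25.8 RPM in sum). Those 4 genes summed to at most 0.288 RPM in young libraries. Each Rab7 library thus held RNA of both sexes, in differing amounts, and an effect of this on the Rab7 comparison was not tested. From the steps between low values, the total behind the scaling was 6098281 to 9907460 reads per library. Only 18.7% to 23.5% of it lay in the listed genes, which is 1284411 to 1855047 reads per library. Rn45s, 1 of the listed genes, took 7.64% to 11.8% of that part. Of all tested genes 131 were higher and 124 lower with age, a split that became 221 and 107 under median-of-ratios scaling and 217 and 113 under equal totals.

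The promoters of Cd9 and Cd63 are shown because these were the 2 members that differed between the Rab7 libraries and because their sequences are unlike each other. Both run 5′ to 3′ on the strand of the gene, from RefSeq on GRCm38.p6, with 250 bases before the start and 50 after it. The Cd9 window is chr6:125494711-125495010 on the minus strand, and its capitals mark the GC box GGGCGG. The Cd63 window is chr10:128909095-128909394 on the plus strand, and its capitals mark GAGGAA or its reverse complement TTCCTC, a core that the myeloid factor PU.1 can bind.
Cd9: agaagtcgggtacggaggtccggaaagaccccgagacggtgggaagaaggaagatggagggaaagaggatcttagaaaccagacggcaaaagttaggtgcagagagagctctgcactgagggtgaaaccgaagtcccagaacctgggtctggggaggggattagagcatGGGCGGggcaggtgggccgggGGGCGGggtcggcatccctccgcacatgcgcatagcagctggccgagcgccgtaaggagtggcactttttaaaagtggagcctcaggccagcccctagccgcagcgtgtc
Cd63: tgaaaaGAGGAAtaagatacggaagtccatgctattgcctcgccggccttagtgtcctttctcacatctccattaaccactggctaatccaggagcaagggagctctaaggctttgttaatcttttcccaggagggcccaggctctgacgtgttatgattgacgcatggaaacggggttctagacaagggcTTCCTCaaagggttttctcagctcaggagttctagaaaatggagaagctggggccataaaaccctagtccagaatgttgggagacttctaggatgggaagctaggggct
The Cd9 window had 61.3% G and C and 18 CpG pairs, whereas the Cd63 window had 49.3% and 6 pairs. The median of 32851 mouse promoters of the same length was 52.7% and 7 pairs. Cd9 held 2 GC boxes and no GAGGAA, and Cd63 held 2 GAGGAA cores and no GC box, so no motif searched was shared by both. On either strand 35.7% of all promoters held GGGCGG and 28.3% held GAGGAA, so both are common letters and the matches are a description only. The other motifs searched were CACGTG, in 7.15% of promoters, CCAAT, in 37.4%, and TATAAA, in 13.6%. Neither window held any of these 3. Among the 8 genes, with every annotated promoter counted, 5 held GGGCGG, 4 held GAGGAA, 3 held CCAAT, 2 held CACGTG and 1 held TATAAA.

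The members spanned a wide range of abundance. Cd81 and Cd53 were the most abundant, with 178 to 325 RPM and 104 to 150 RPM over the 10 libraries. Cd37 (29.5 to 52.3 RPM) and Cd9 (13.4 to 67.8 RPM) followed. Tspan3 had 8.24 to 13.5 RPM, Cd63 3.28 to 17.8 RPM, Cd82 3.60 to 8.77 RPM and Tspan4 1.41 to 3.65 RPM. Per kilobase of the principal transcript the mean level was 148 RPM for Cd81, 78.2 for Cd53, 31.6 for Cd37 and 21.6 for Cd9. It was 6.57 for Cd63, 6.41 for Tspan3, 2.97 for Cd82 and 1.61 for Tspan4. With the length of all annotated exons instead, Cd9 (12.97) came before Cd37 (11.0) and Tspan3 (2.57) before Cd63 (1.98), so the order of these neighbours is not fixed. Cd63 rested on about 20 to 120 reads per library and Tspan4 on about 9 to 31, against 1134 to 2258 for Cd81, so the low members carry the larger counting error.

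**Figure D1:**
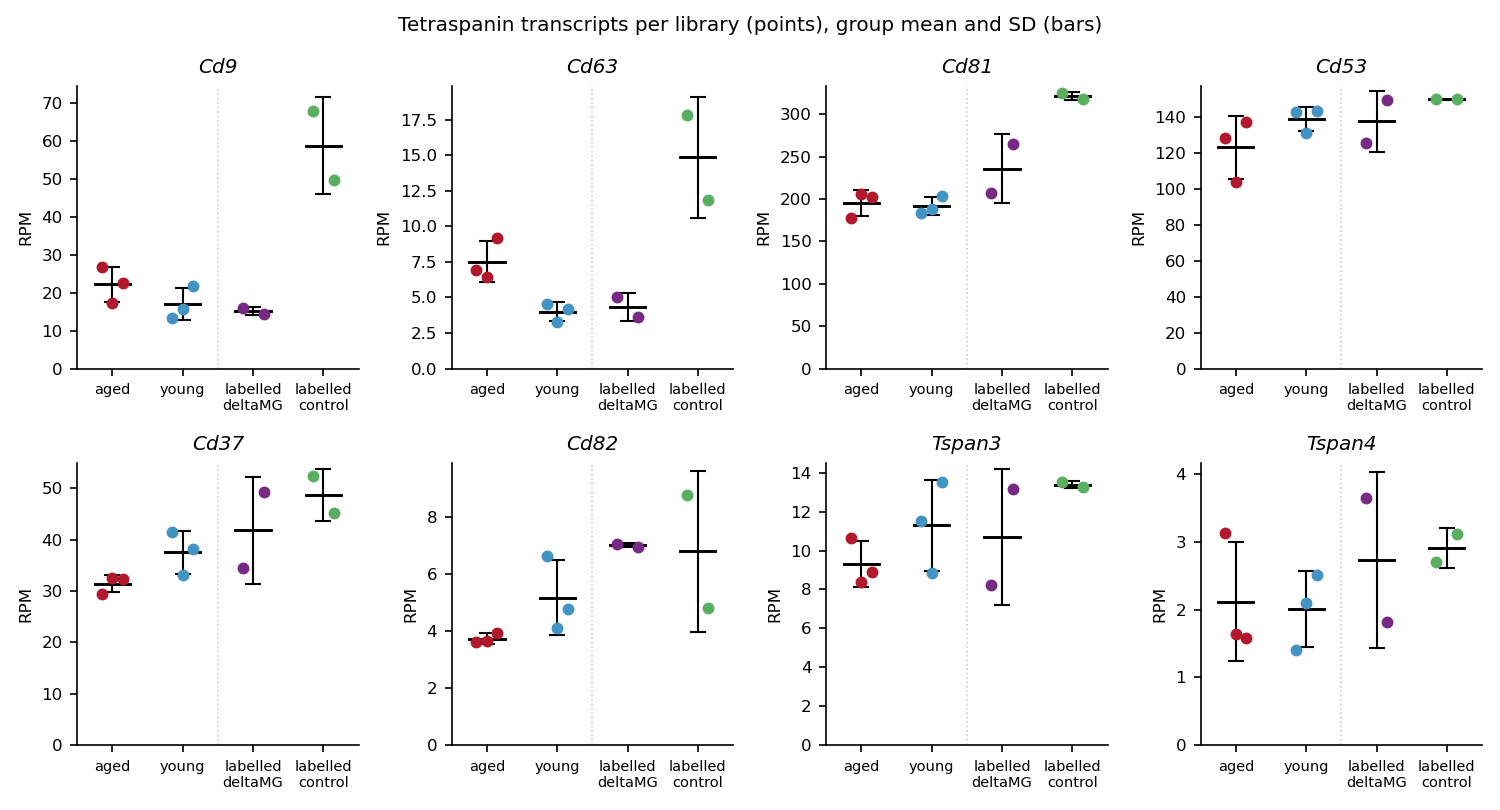
Level of each tetraspanin gene in each of the 10 libraries, in RPM on a linear axis from 0, with 1 point per library and black bars for the group mean ± SD. The 2 control libraries lie above all other libraries for Cd9, Cd63 and Cd81. For Cd53 they do so only barely, with 149.93 and 150.32 RPM against 149.87 RPM in deltaMG replicate 2. The 4 group means run from 123 to 150 RPM for Cd53, 31.4 to 48.7 RPM for Cd37 and 9.31 to 13.4 RPM for Tspan3.

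Cd9 was far lower in the libraries labelled deltaMG than in those labelled control. It had 15.9 and 14.5 RPM in the deltaMG libraries, against 67.8 and 49.6 RPM in the control libraries. Both control values lay above every other library of the series. The means were 15.2 ± 1.01 RPM and 58.7 ± 12.8 RPM (SD, n = 2 each), a log2 difference of -1.87 (SE 0.24, 95% interval -2.39 to -1.35, limma adjusted p = 0.000700). This is a level 3.65-fold lower in deltaMG on the log2(RPM + 1) scale. Cd9 was called under every alternative that tested it, with adjusted p up to 0.0350, the value without control replicate 1. With the neutrophil score in the model the difference was -1.94 (adjusted p = 5.53e-05). In bulk RNA, fewer cells of a type and less RNA per cell cannot be told apart, here and in all results below.

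In ageing microglia Cd9 had 26.6, 17.3 and 22.6 RPM in the aged libraries, against 13.4, 15.7 and 21.7 RPM in the young ones. The groups overlapped, since the second aged library was below the highest young one. The log2 difference was 0.37 (SE 0.20, 95% interval -0.051 to 0.80, adjusted p = 0.304). The order of the group means was control, aged, young and deltaMG, and only the control group stood clear of its neighbour.

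Cd63, the late endosomal member, was also lower in the deltaMG libraries. It had 5.02 and 3.62 RPM in the deltaMG libraries, against 17.8 and 11.8 RPM in the control libraries. The 2 groups did not overlap, and no library outside the control group reached 10 RPM. The means were 4.32 ± 0.991 RPM and 14.8 ± 4.23 RPM (SD, n = 2 each), with a log2 difference of -1.56 (SE 0.31, 95% interval -2.22 to -0.90, adjusted p = 0.00997). Cd63 therefore entered the test only through the group where it was high. The call held with no filter (adjusted p = 0.0277) and with a filter on the mean of all libraries, chosen after seeing the data (0.00494). It was lost without deltaMG replicate 2 (log2 difference -1.37, adjusted p = 0.0824) and without control replicate 1 (-1.29, adjusted p = 0.206). A pseudocount of 10 RPM shrank the difference to -0.79, still called.

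Cd63 had 6.89, 6.46 and 9.14 RPM in the aged libraries, against 4.57, 3.28 and 4.17 RPM in the young ones. All 3 aged libraries were above all 3 young ones. The means were 7.50 ± 1.44 RPM and 4.01 ± 0.661 RPM (SD, n = 3 each). The log2 difference of 0.76 (SE 0.25, 95% interval 0.22 to 1.30) was not called (limma adjusted p = 0.0929). Its adjusted p was 0.0515 or more under every alternative that tested it. Without aged replicate 3, the library rich in neutrophil markers, the difference was 0.62 (adjusted p = 0.258). Among the group means control was highest and aged next, both clear of the groups beside them, while deltaMG and young overlapped.

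Cd81, the most abundant member, went the same way as Cd9 between the Rab7 libraries by a much smaller amount. It had 207 and 265 RPM in the deltaMG libraries, against 325 and 318 RPM in the control libraries. The groups did not overlap, but the deltaMG libraries were far apart from each other. The log2 difference of -0.46 (SE 0.15, 95% interval -0.77 to -0.14) was not called (limma adjusted p = 0.106), and array weights alone among the alternatives called it (adjusted p = 0.0483). In ageing Cd81 had 178, 206 and 202 RPM in aged libraries and 184, 188 and 204 RPM in young ones, a log2 difference of 0.023 whose 95% interval was -0.23 to 0.28. Its sign turned under array weights and without some single libraries.

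The leukocyte tetraspanins showed no called difference. Cd53 had 128, 104 and 138 RPM in aged libraries, against 143, 131 and 143 RPM in young ones (log2 difference -0.18, 95% interval -0.45 to 0.088, limma adjusted p = 0.448). In the Rab7 libraries it had 126 and 149.9 RPM in deltaMG, against 149.9 and 150.3 RPM in control (log2 difference -0.13, 95% interval -0.46 to 0.20, adjusted p = 0.729). Cd53 thus varied least, with an SD of 0.16 on the log2 scale over the 10 libraries, against 0.76 for Cd9 and 0.69 for Cd63. Cd37 had 29.5, 32.5 and 32.3 RPM in aged libraries, all below the 41.4, 33.1 and 38.1 RPM in young ones. Its log2 difference of -0.25 had a 95% interval of -0.57 to 0.076 (adjusted p = 0.382). Between the Rab7 libraries Cd37 overlapped, with 34.4 and 49.2 RPM in deltaMG and 52.3 and 45.1 RPM in control (log2 difference -0.23, 95% interval -0.63 to 0.16, adjusted p = 0.555), and its sign turned without deltaMG replicate 1.

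Cd82 and Tspan4 were below the filter in all libraries and were not tested. Cd82 had 3.60, 3.63 and 3.94 RPM in aged libraries, all below the 6.62, 4.10 and 4.75 RPM in young ones. It had 7.05 and 6.94 RPM in deltaMG libraries, between the 8.77 and 4.79 RPM in control libraries. With no filter its adjusted p was 0.599 for age and 1 for the Rab7 libraries. Tspan4 had 3.14, 1.64 and 1.57 RPM in aged libraries and 1.41, 2.09 and 2.52 RPM in young ones. It had 3.65 and 1.81 RPM in deltaMG libraries and 2.71 and 3.12 RPM in control libraries, so its groups overlapped in both comparisons. Tspan4 overlaps the gene Chid1 on the other strand, and reads of both genes cannot be told apart because no strand setting is given in the sources used here. The same limit holds for Cd9 (Gm28809 and Gm26728), Cd81 (R74862), Cd37 (Tead2) and Cd82 (Gm10804), each with an annotated gene on the other strand.

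Tspan3 passed the filter through 6 libraries. It had 10.7, 8.38 and 8.89 RPM in aged libraries and 11.5, 8.85 and 13.5 RPM in young ones (log2 difference -0.24, 95% interval -0.70 to 0.21, limma adjusted p = 0.572). It had 8.24 and 13.2 RPM in deltaMG libraries, against 13.5 and 13.3 RPM in control libraries, so the second deltaMG library was close to the controls and the first well below them (log2 difference -0.33, 95% interval -0.88 to 0.22, adjusted p = 0.554). In the order of the group means, control, young, deltaMG and aged, the range of each group overlapped that of the next. The ranges of deltaMG and control did not overlap, with 13.16 RPM as the highest deltaMG and 13.26 RPM as the lowest control value.

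**Figure D2:**
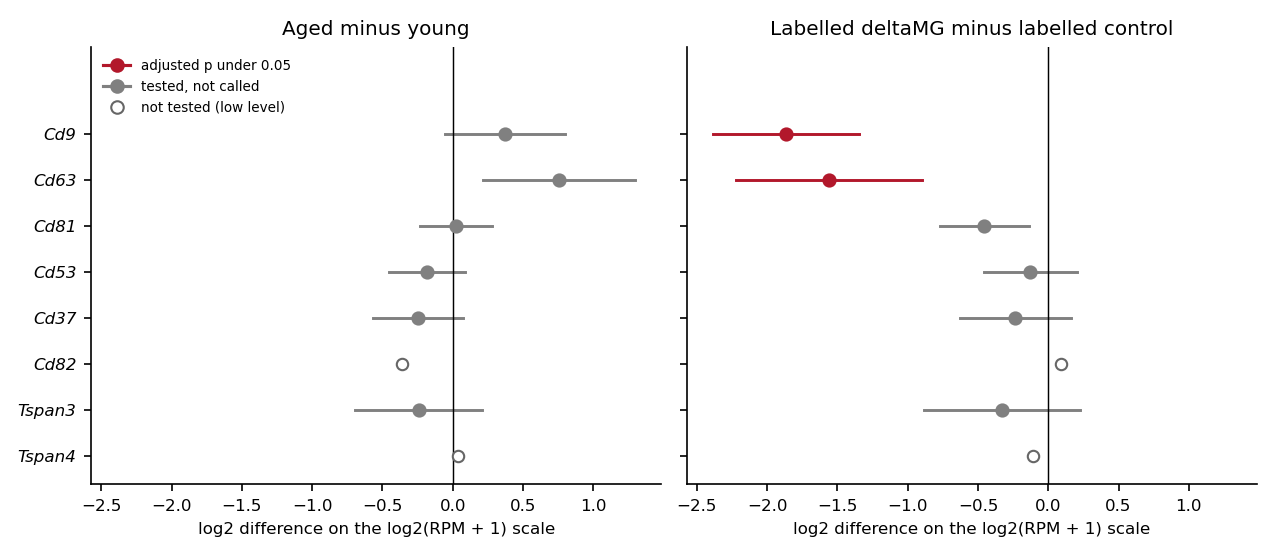
Log2 difference of each tested tetraspanin gene with its 95% interval, in aged minus young (left) and deltaMG minus control (right), on the log2(RPM + 1) scale, with called genes in red and the 2 untested genes as open circles. Cd9 and Cd63 lie far below 0 in deltaMG minus control, while their intervals in aged minus young start at -0.051 and 0.22.

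Of the 6 tested members, 2 were lower and none higher in deltaMG, where 2.58% of all tested genes were called lower and 3.78% in either direction. The median log2 difference was -0.28 over all 8 members and -0.39 over the 6 tested, which include Cd63 through its high control values, against -0.016 over all tested genes. The ranges of deltaMG and control did not overlap for 5 of the 6 tested members and neither of the untested ones, beside 51.8% of all tested genes. With age 0 of 6 members were called by limma, against 6.14% of all tested genes, and 1 member, Cd63, had an unadjusted p under 0.05, as had 21.5% of all tested genes. The members' median difference with age was -0.080, near the -0.048 of all tested genes. Aged and young ranges did not overlap for 2 of the 6 tested members, Cd63 and Cd37, beside 23.9% of all tested genes, nor for the untested Cd82.

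With the labels as given, the 2 effects on Cd9 and Cd63 differed from each other, which was tested in the same model. Exchanged deltaMG and control labels would change the size of these differences and not only a sign, and that case was not tested. The effect of age minus the effect of the deltaMG label was 2.24 for Cd9 (SE 0.31, limma adjusted p = 0.000718) and 2.32 for Cd63 (SE 0.40, adjusted p = 0.00336) on the log2 scale. In this test 4.79% of all genes were called. Cd63 entered it, too, only through its high control values, and with no filter its adjusted p was 0.00982. For Cd81 the difference of effects was 0.48 (SE 0.19, adjusted p = 0.182), and for Cd53, Cd37 and Tspan3 it lay between -0.055 and 0.088.

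The profiles of Cd9 and Cd63 over the 10 libraries were compared with 685 other tested genes of at least 50 RPM on average, after centring each gene on the log2 scale. The nearest to Cd9 by root mean square distance were Ctss (0.276) and Ctsl (0.298), which encode the lysosomal proteases cathepsin S and cathepsin L, and Serpine2 (0.323), a secreted protease inhibitor. The nearest to Cd63 were Apoe (0.294), a lipid carrier, Eef1a1 (0.311), a translation elongation factor, and Gnas (0.314), a G protein subunit. Cd9 and Cd63 were 0.305 apart, so these genes lay about as near to each as the pair to one another. The most alike members were Cd53 and Tspan3 (0.171) and the least alike Cd9 and Cd82 (0.742).

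The control libraries are the high ones for Cd9 and Cd63, so lower levels of these 6 genes in deltaMG were fixed by the way they were chosen, and their values are given as a description with no test. Ctss had 586 ± 114 RPM in deltaMG and 1583 ± 515 RPM in control (SD, n = 2 each), a log2 difference of -1.41. Apoe had 57.7 ± 7.12 RPM in deltaMG and 169 ± 34.5 RPM in control (SD, n = 2 each), a log2 difference of -1.52. Apoe had 86.7 ± 14.0 RPM in aged libraries and 37.5 ± 6.58 RPM in young ones (SD, n = 3 each), a log2 difference of 1.19 against 0.76 for Cd63. The age differences of the genes nearest to Cd9 were 0.17 for Ctss, 0.15 for Ctsl and -0.14 for Serpine2, against 0.37 for Cd9.

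**Figure D3:**
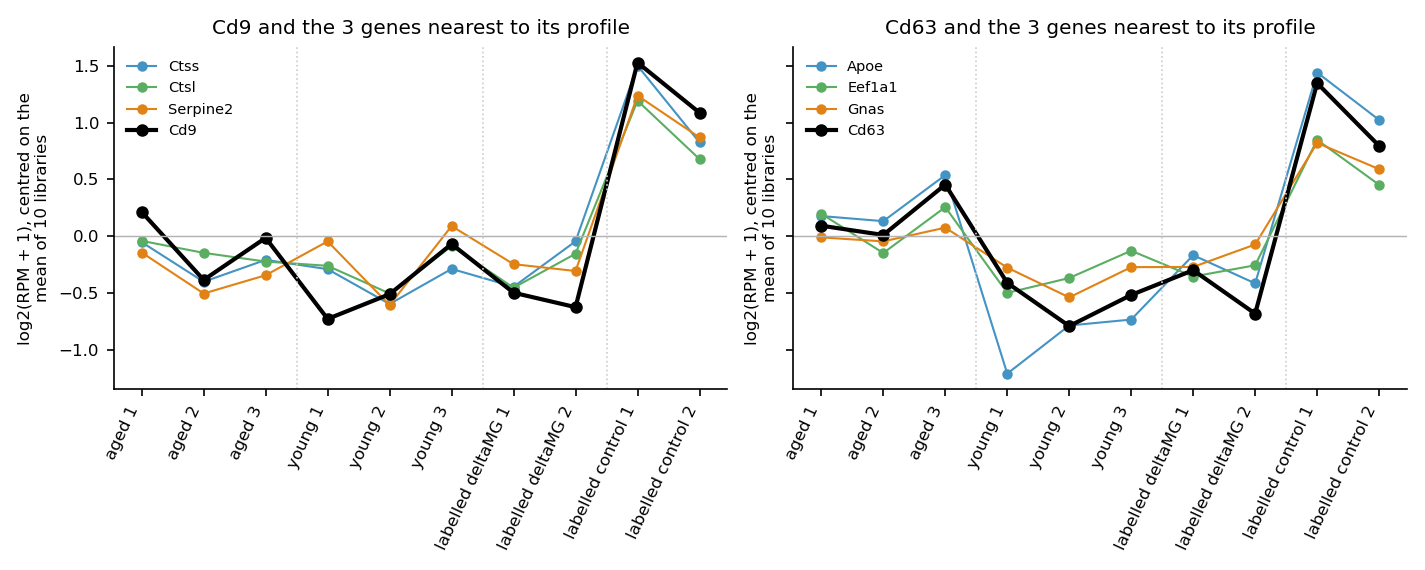
Centred log2(RPM + 1) values of Cd9 and Cd63 over the 10 libraries with the 3 genes nearest to each. In both panels the 2 control libraries carry the highest values of every gene drawn.

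Other tetraspanins were mostly too low to test. Of 23 further family members 6 were tested, and 1 was called in each comparison, beside 6.14% of all tested genes with age and 3.78% in deltaMG. Tspan7 fell to 8.57 ± 3.84 RPM in deltaMG libraries, against 19.8 ± 2.88 RPM in control libraries (SD, n = 2 each; log2 difference -1.17, limma adjusted p = 0.0379). With a replicate block it was not called (adjusted p = 0.113). Its call was lost with the neutrophil score (adjusted p = 0.107), with no filter (0.130), without either control library (0.311 and 0.120), without deltaMG replicate 1 (0.344) and without aged replicate 1 (0.0548) or young replicate 2 (0.0513), and Tspan7 lies on chromosome X. Tspan13 fell to 18.1 ± 2.45 RPM in aged libraries, against 26.5 ± 2.09 RPM in young ones (SD, n = 3 each; -0.53, adjusted p = 0.0496), and leaving out any 1 of the 10 libraries ended this call (0.0621 to 0.166). The median log2 difference of the 6 was -0.28 with age and -0.045 between the Rab7 libraries.

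Membrane partners of tetraspanins were called in both comparisons. Of 26 listed partners 17 were tested, and 3 were higher and 1 lower in deltaMG, while 8 were higher and 1 lower with age, beside the 3.78% and 6.14% of all tested genes called in either direction. The list was chosen with earlier results of these data known, so these counts are a description. Of those higher with age, Ifitm1 entered the test only through the aged libraries, where it was high (mean 9.84 RPM, against 1.32 RPM in young). The age count of 9 fell to 5 with no filter, with 1 prior variance or with own groups only, and to 4 with a replicate block. The deltaMG count of 4 ran from 0 without control replicate 1 to 8 with array weights, with own groups only or without aged replicate 3. The immunoglobulin-type partner Ptgfrn, which binds Cd9 and Cd81 directly, fell to 9.80 and 10.7 RPM in deltaMG libraries, against 28.1 and 29.6 RPM in control libraries (log2 difference -1.41, limma adjusted p = 0.00288, and 0.0537 without control replicate 1). Like Cd9 it was highest in the control libraries, with 9.90 to 15.7 RPM in aged and 8.19 to 11.3 RPM in young libraries (age adjusted p = 0.336).

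The partners that were higher were of other kinds. Cd74, a chaperone of MHC class II molecules, had 123 ± 8.93 RPM in deltaMG and 52.8 ± 3.37 RPM in control (SD, n = 2 each; log2 difference 1.21, limma adjusted p = 0.0193). It had 105 ± 34.3 RPM in aged and 30.8 ± 7.69 RPM in young libraries (SD, n = 3 each; 1.71, adjusted p = 0.000463). The antiviral membrane proteins Ifitm2 and Ifitm3 were higher in deltaMG by 1.52 and 1.13 (adjusted p = 0.0194 and 0.0479) and with age by 2.02 and 1.54 (0.000578 and 0.00238) on the log2 scale. The lectin receptor gene Clec7a was higher with age (1.64, adjusted p = 0.00704) and had a log2 difference of -1.41 in deltaMG that was not called (0.0517). The Clec7a difference in deltaMG was called under 10 alternatives, among them all 3 other scalings (0.0193 to 0.0364) and the neutrophil score (-2.20, 8.01e-05). Leaving out any 1 of the 4 Rab7 libraries ended the deltaMG calls of Cd74 (adjusted p from 0.0999), Ifitm2 (from 0.0719) and Ifitm3 (from 0.131), and so did adding the neutrophil score (0.131, 0.129 and 0.360). With no filter the deltaMG calls of these 3 genes were lost too (limma adjusted p = 0.118, 0.114 and 0.205). A replicate block ended those of Cd74 (0.0998) and Ifitm3 (0.143). The age calls of the 3 genes held without aged replicate 3 and with the score. The neutrophil and monocyte marker sums were higher in deltaMG than in control, monocytes with 158 to 210 RPM against 52.7 to 90.3 RPM. With age the ranges of both sums overlapped, monocytes with 147 to 696 RPM in aged and 75.1 to 193 RPM in young libraries. The part of such cells in the differences of these 3 genes was not tested beyond the neutrophil score.

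Of 23 genes of vesicle formation and release 6 were tested, and 0 were called in deltaMG by limma, also at an unadjusted p under 0.05, and 1 with the neutrophil score. Syntenin, encoded by Sdcbp and known to load Cd63 into vesicles, was higher with age, with 103 ± 13.9 RPM in aged and 68.6 ± 3.94 RPM in young libraries (SD, n = 3 each; log2 difference 0.58, limma adjusted p = 0.0123, but 0.0545 without young replicate 2 and 0.0694 with a replicate block). Of 22 membrane proteins of late endosomes and lysosomes 17 were tested, and 2 were lower in deltaMG, where 2.58% of all tested genes were. With age 1 was lower, beside 6.14% of all tested genes called in either direction. Lamp1, the main lysosomal membrane glycoprotein beside which Cd63 resides, had 252 ± 39.6 RPM in deltaMG and 456 ± 49.9 RPM in control (SD, n = 2 each; -0.86, adjusted p = 0.00355, but 0.0592 without deltaMG replicate 1 and 0.105 without control replicate 1). The cholesterol exporter gene Npc1 was lower in deltaMG (-0.68, adjusted p = 0.0439; 0.200 with the neutrophil score, 0.167 with no filter and 0.0765 with quantile normalization), a call that leaving out any 1 of the 4 Rab7 libraries but deltaMG replicate 2 ended (0.145 to 0.370), as did leaving out aged replicate 1 (0.0623), young replicate 1 (0.0647) or young replicate 2 (0.0641). Npc1 was also not called with a replicate block (limma adjusted p = 0.126) or with 1 prior variance (0.0947). The sialomucin gene Cd164 was lower with age (-0.58, adjusted p = 0.0159, but 0.0826 without young replicate 1 and 0.0514 without young replicate 3). The Cd164 call was also lost with no filter (0.0786), with a replicate block (0.0643) and with 1 prior variance (0.0516). The median of the list was -0.088 in deltaMG and -0.10 with age.

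**Figure D4:**
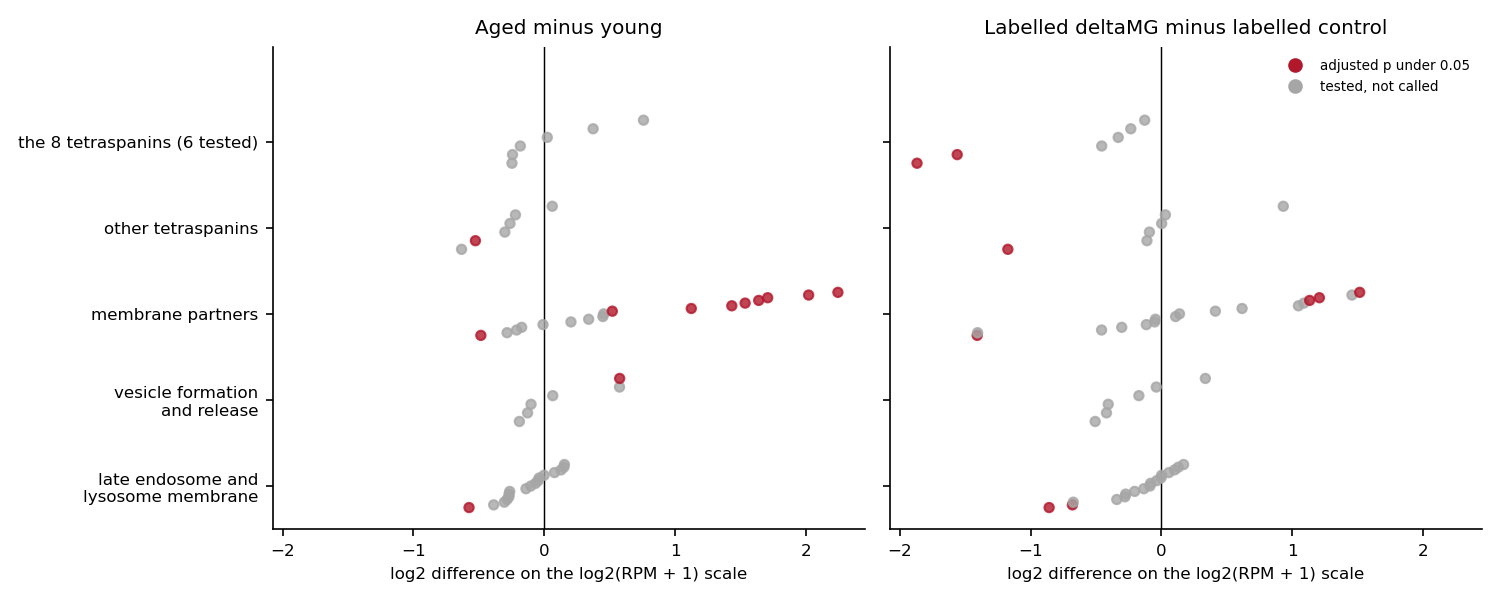
Log2 difference of every tested gene of the 8 tetraspanins and of the 4 lists, in aged minus young (left) and deltaMG minus control (right), with called genes in red. Ptgfrn at -1.41 and Cd74, Ifitm2 and Ifitm3 at 1.13 to 1.52 are the called partners in deltaMG minus control.

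The marker sums of the Rab7 libraries are given beside Cd9 and Cd63, since astrocytes, endothelial cells and oligodendrocytes can also express these genes. Microglial markers summed to 4635 to 5968 RPM in deltaMG and 5059 to 5473 RPM in control. Astrocyte markers summed to 33.7 to 41.4 RPM in deltaMG and 49.2 to 55.7 RPM in control, and Slc1a3 made up nearly all of this, with 31.3 and 37.3 RPM in deltaMG and 51.4 and 46.0 RPM in control. The other astrocyte markers had at most 1.88 RPM in these libraries, Slc1a2 overlapped between the groups, and Gfap was at 0 in 3 of the 4. Oligodendrocyte markers summed to 19.5 to 22.7 RPM in deltaMG and 19.0 to 22.9 RPM in control. Endothelial markers summed to 4.78 to 6.22 RPM in deltaMG and 1.69 to 3.42 RPM in control, and their defining gene Cldn5 was at 0 in every library. Border macrophage markers summed to 47.5 to 49.2 RPM in deltaMG and 38.0 to 47.1 RPM in control. B cell, T cell and neuron markers summed to at most 2.39 RPM in any of these libraries. The part of astrocyte, neutrophil or monocyte RNA in the Cd9 and Cd63 differences was not tested beyond the neutrophil score, with which that of Cd63 was -1.83 (limma adjusted p = 0.00298). The Cd9 and Cd63 levels of the deltaMG libraries, 15.2 and 4.32 RPM on average, were close to those of the young libraries, 17.0 and 4.01 RPM, and the control libraries stood apart from both. These groups differ in age and experiment, and no test was made between them.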

How the data were processed

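Per the labels' protocols, microglial RNA was amplified with the Ovation RNA-Seq System V2 before Ion Xpress library preparation. GRCm38, mm10 and FastQC are named by the submitters' processing notes. Not given in the sources used here are the aligner, counter, annotation, strand setting and scaling. The authors deposited values in RPM, a unit inferred because low values were whole multiples of 1 step per library above a constant of 0.0001 RPM in every cell, which was subtracted. Among values of at most 500 reads, 94.2% to 94.6% lay within 0.05 of a whole read, so whole reads could not be had and count models were avoided.

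The filter was 10 RPM in 2 or more of the 10 libraries. The model was limma 3.58.1 (R 4.3.3) on log2(RPM + 1) values (4 groups, 6 residual degrees of freedom, prior variance trend). Intervals are 95%. The fit was tested on simulated data. The members, the gene lists and the tests were chosen with earlier results of these data known. Named genes were all members, Rab7, Cx3cr1, sex-linked genes, all called list members where a list had up to 6 in a comparison and otherwise the 4 with the smallest p, and the 3 nearest profiles of each called member. Called list members beyond these are given as counts only, apart from Ifitm1. Alternatives covered filter, pseudocount, scaling, replicate block, variance prior, weights, neutrophil score, own groups only and each library left out. Genes were located in GENCODE M21, and figures were drawn with matplotlib 3.10.9.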

Additional observations from a re-analysis of the deposited data

How the results depend on the processing

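Cd9 and Cd63 were both called lower in deltaMG under every alternative that tested them, except Cd63 without deltaMG replicate 2 and without control replicate 1. The count of called members was 0 with a filter of 50 RPM in at least 3 libraries, since neither gene then enters, and ranged from 1 to 2 when single libraries were left out. Deviations from the group means correlated at -0.137, -0.244 and -0.392 between aged and young libraries of the same replicate number. These values give no sign that the numbers pair the samples. They cannot exclude it, because deviations from a mean of 3 libraries are tied to each other. The 2 Rab7 pairs give only 1 value, 0.116, which cannot show whether their numbers pair. With a replicate block 66 genes were called with age and 69 in deltaMG, and Cd9 (adjusted p = 0.00430) and Cd63 (0.0395) were still called. Against 255 genes called with age, there were 127 with no filter, 116 with the 50 RPM filter, 141 with the neutrophil score, 121 with own groups only and 96 to 422 with single libraries left out. Against 157 called in deltaMG, there were 87 with no filter, 62 with the 50 RPM filter, 357 with array weights, 510 with own groups only and 25 to 317 with single libraries left out. Small differences changed sign. For age, Cd81 was -0.0127 with array weights and -0.0170 to 0.0889 with single libraries left out, and Rab7 was -0.0557 with the neutrophil score and -0.0170 to 0.36 with libraries left out. For deltaMG, Rab7 was -0.21 with the neutrophil score, and with libraries left out Cd37 ran from -0.49 to 0.0173 and Tspan13 from -0.21 to 0.0298. The difference of effects for Cd37 was 0.0193 with median-of-ratios scaling and 0.0213 with equal totals. With libraries left out it ran from -0.26 to 0.24 for Cd37, -0.18 to 0.0700 for Cd53 and -0.22 to 0.40 for Tspan3. The causes were not tested. Cd63, Cd82 and Tspan4 are limited by depth.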
